A study of Mus musculus with 6 samples.

Results

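Enzymes that write and erase histone acetylation, and the coactivators and corepressors that carry them, were followed in the marrow of mice with a model of multiple myeloma, in which malignant plasma cells fill the bone marrow. The gene names chosen were those of the lysine acetyltransferases (Hat1, Kat, Crebbp and Ep300), subunits of their complexes (Ep400, Trrap, Tada, Brd1, Brd8 and Brpf), the nuclear receptor coactivators (Ncoa), the zinc-dependent deacetylases (Hdac), the sirtuins (Sirt), the corepressor scaffolds (such as Ncor1, Rcor and Sin3) and the bromodomain proteins Brd7 and Brd9. The choice was by name, and 54 of the 17173 genes in the authors' gene table matched it. They comprised 10 acetyltransferases, 10 subunits of acetyltransferase complexes, 7 coactivators, 11 zinc-dependent deacetylases, 7 sirtuins, 7 corepressor scaffolds and 2 bromodomain subunits of chromatin remodellers.

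The study sequenced ribosome-depleted total RNA in 6 libraries, 3 with the genotype label control and 3 with the genotype label Che-1 silencing (called silencing-labelled here). The source label of all 6 reads VkCHE mice, so what the groups share beyond that name, how silencing was achieved, which cells carry it, what drives the tumour and how old the mice were are not stated in those labels. Nor do the labels tie replicates to separate mice, so p-values cover only how far these libraries vary, and that variation may be technical. Aatf encodes Che-1, a partner of RNA polymerase II that is known in human cells to displace the deacetylase HDAC1 from the retinoblastoma protein.

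The authors' normalized counts are gene counts scaled to added ERCC spike-in RNAs (the spike-in scale). A second scale, called relative here, sets the median log2 level of all tested genes equal in every library, so that a gene is compared with the other genes of its own library. All log2 differences are those of the silencing-labelled libraries minus control, and values per library follow the order of replicates 1, 2 and 3. Aatf went against its label, and whether the group labels were exchanged was not tested, so every direction is that of the labels as given. It stood at 896, 396 and 421 normalized counts in control and at 1986, 3808 and 1223 in the silencing-labelled libraries, a rise of 1.98 on the log2 spike-in scale (SE 0.57, limma adjusted p = 0.0021, n = 3 per group) and a relative difference of 0.45 (SE 0.19, limma adjusted p = 0.143). The first call ended without control replicate 2 or 3 (limma adjusted p = 0.0568 and 0.0575) and with the pair averaged (limma adjusted p = 0.0567). Xist had a mean of 5.64 in control and 68685 in the silencing-labelled libraries in the authors' deposited table, and Ddx3y a mean of 2099 and 0, so sex differed between the groups and cannot be told apart from genotype. Gene reads per library ran from 11317166 to 24899535, the members took between 0.588% and 0.731% of them, and no member had fewer than 38 reads in a library. Control replicates 2 and 3 lay closest among pairs within a group, control replicate 1 lay apart from both, and Che-1 silencing replicate 3 lay apart from replicates 1 and 2 (mean chi-square per gene of 2.12 for the first pair, 49.6 and 52.6 for control replicate 1 with replicates 2 and 3, 17.4 for silencing replicates 1 and 2, and 128 and 166 for replicate 3 with replicates 2 and 1).

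Histone tails are acetylated on lysine by acetyltransferases, which opens chromatin and creates docking sites for bromodomain proteins. Deacetylases remove the mark, and most nuclear ones work inside corepressor complexes built on SIN3, CoREST, NCoR or NuRD scaffolds. Zinc-dependent deacetylases are drug targets in multiple myeloma, and mutations of Crebbp and Ep300 are known in B cell lymphomas.

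On the spike-in scale most of these genes rose, as did most genes of the libraries. The limma fit called 44 of the 54 members higher and 0 lower in the silencing-labelled libraries at an adjusted p of 0.05, where 66.7% of the 14604 tested genes were called higher and 0.746% lower. The median log2 difference was 1.61 over the members and 1.54 over all tested genes. In 40 members every silencing-labelled library lay above every control library, as in 68.0% of tested genes, and in 0 every one lay below, as in 0.438%. In a bulk sample, a change in the number of cells of a type and a change in RNA per cell cannot be told apart. Gene reads were 11317166, 15930992 and 17809057 in control and 24899535, 21241846 and 14373200 in the silencing-labelled libraries. Spike-in reads, on which this scale rests, were 471796, 1149392 and 1105881 in control and 445186, 228087 and 414769 in the other group. Whether the libraries differed in the amount of spike-in added per RNA was not tested.

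The count of rises rested on single libraries. It fell to 10 members without control replicate 2, 11 without control replicate 3, 16 without Che-1 silencing replicate 1 and 22 without Che-1 silencing replicate 2, and to 11 with control replicates 2 and 3 averaged into a single library. Hat1, Hdac1, Hdac3, Hdac6, Ncoa1, Rcor2, Sirt4, Sirt6, Tada1 and Tada2a passed with each library left out in turn and with those controls averaged, and each of the other 34 calls ended under at least 1 of these settings. The spike-in fit borrowed its spread from genes of similar level, and with each gene's own spread 0 members passed and 0 genes were called higher. In the authors' deposited table no member had an adjusted p below 0.186, where 0.0773% of genes passed.

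Relative to the other genes of the same library, no member passed. limma called 0 of the 54 members higher and 0 lower, where 0 genes (0%) were called higher and 4 genes (0.0274%) lower. The members' relative differences had a median of 0.08 and an SD of 0.48, with 29 above 0 and 25 below. At an unadjusted p under 0.05 stood 17 members, 10 above and 7 below, where 35.1% of tested genes did, 17.8% above and 17.3% below, and the lowest adjusted p was 0.0723 for Rcor2. Groups did not overlap in 8 members with every silencing-labelled library above control and in 10 with every such library below, where 20.5% and 19.7% of genes did so. edgeR called 0 members. DESeq2 on the same scale called Hat1, Tada1, Ncoa1, Hdac1, Hdac3 and Rcor2 higher and Kat6b, Crebbp, Ncoa6, Hdac4, Hdac5 and Hdac10 lower, where it called 15.0% of genes higher and 12.2% lower. Without Che-1 silencing replicate 3, limma called 20 members higher and 6 lower, where 27.6% and 25.4% of all genes were called.

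**Figure D1:**
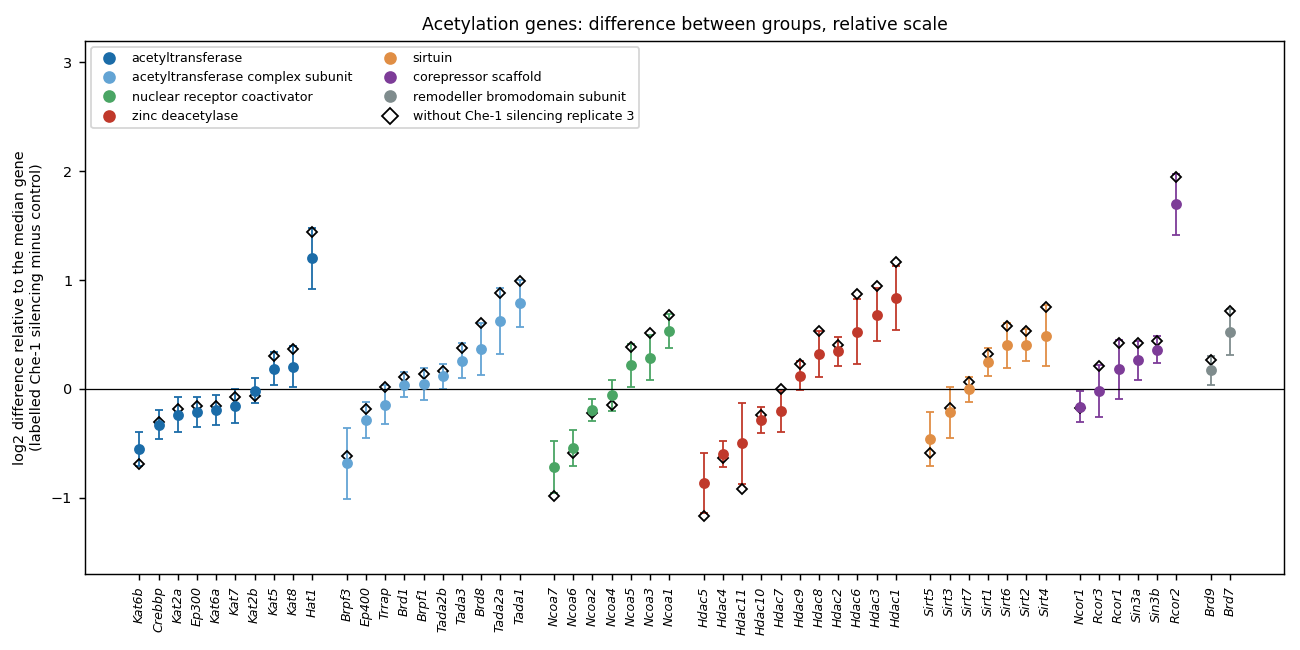
Relative log2 difference of the members, 1 not shown (y axis, silencing-labelled minus control), grouped and coloured by class and ordered by size within it. Points with bars are the limma estimate and its SE over 3 libraries per group, and open diamonds are the estimate without Che-1 silencing replicate 3. Differences lie on both sides of 0, from -0.87 for Hdac5 to 1.70 for Rcor2, and most of the larger ones lie farther from 0 without that replicate, as for Hdac1 (0.83 and 1.16).

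The members at the ends of the relative range with a single start site in the promoter table were Rcor2 and Hat1 at the top and Hdac5 and Brpf3 at the bottom. Their promoter windows (RefSeq, build GRCm38.p6, 250 bases before to 50 after the start, printed 5′ to 3′ on the gene's strand) are shown so that the letters upstream of the genes that lay farthest apart can be compared. They lie at chr19:7267144-7267443 on the plus strand, chr2:71389010-71389309 on the plus strand, chr11:102230123-102230422 on the minus strand and chr17:28800876-28801175 on the plus strand. Capitals mark matches, on either strand, to the CCAAT box (CCAAT), the GC box (GGGCGG), the E2F motif (TTTCCCGC or else TTTCGCGC), the E-box (CACGTG), the cyclic AMP response element (TGACGTCA) and the ETS motif (CCGGAAG). No 2 of the printed matches overlap.
Rcor2: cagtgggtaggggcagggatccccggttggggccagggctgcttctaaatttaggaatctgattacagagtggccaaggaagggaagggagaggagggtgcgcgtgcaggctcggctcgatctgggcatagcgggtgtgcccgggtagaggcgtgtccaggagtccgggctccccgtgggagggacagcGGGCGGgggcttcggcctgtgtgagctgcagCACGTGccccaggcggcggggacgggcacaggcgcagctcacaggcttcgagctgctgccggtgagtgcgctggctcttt
Hat1: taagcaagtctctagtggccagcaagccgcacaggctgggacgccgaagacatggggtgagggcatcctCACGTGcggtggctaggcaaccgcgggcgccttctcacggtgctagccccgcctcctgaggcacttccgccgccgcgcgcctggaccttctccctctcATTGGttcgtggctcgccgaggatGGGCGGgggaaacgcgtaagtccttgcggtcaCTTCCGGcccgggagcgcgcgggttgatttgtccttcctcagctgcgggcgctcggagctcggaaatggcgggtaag
Hdac5: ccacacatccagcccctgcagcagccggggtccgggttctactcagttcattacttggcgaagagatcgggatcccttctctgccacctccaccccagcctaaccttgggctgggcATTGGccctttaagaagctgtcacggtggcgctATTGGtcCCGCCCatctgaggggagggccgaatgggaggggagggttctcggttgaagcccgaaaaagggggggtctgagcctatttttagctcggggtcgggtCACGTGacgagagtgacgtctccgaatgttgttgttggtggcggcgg
Brpf3: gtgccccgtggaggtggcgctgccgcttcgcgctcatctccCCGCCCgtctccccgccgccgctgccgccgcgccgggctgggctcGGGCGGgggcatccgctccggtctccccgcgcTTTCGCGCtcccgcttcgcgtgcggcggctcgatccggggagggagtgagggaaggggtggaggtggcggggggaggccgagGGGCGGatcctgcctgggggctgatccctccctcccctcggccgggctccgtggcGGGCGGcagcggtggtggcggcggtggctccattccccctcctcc
An E-box was present in the windows of Rcor2, Hat1 and Hdac5, a GC box in all 4, a CCAAT box in those of Hat1 and Hdac5, an ETS match in that of Hat1 alone and an E2F match in that of Brpf3 alone. Among 61 windows of the 45 members with an entry, 67.2% held a GC box, against 35.7% of all 32851 windows. The E-box was in 9.84% of member windows and 7.15% of all windows. The shares for ETS were 19.7% and 8.86%, for E2F 4.92% and 1.37%, for the CCAAT box 31.1% and 37.4%, and for the cyclic AMP response element 0% and 1.79%. Of the 45 members 32 had a single window, so the others count more than once in these shares. No share was taken over the windows of tested genes alone, so the shares do not set the members apart from other expressed genes. Such matches are a description of letters, not of binding.

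Levels were compared between genes only per kilobase of exon, on the spike-in scale. In control the highest level was that of Ncoa4, which hands ferritin to autophagy and so releases its iron, at 787 ± 308 normalized counts per kilobase (SD, n = 3). It was followed by the corepressor scaffold Ncor1 at 613 ± 224, the nucleolar sirtuin Sirt7 at 507 ± 151 and Hdac1 at 467 ± 196. Neighbours differed by less than their SD, which includes shifts of whole libraries that these genes share. Within every control library Ncoa4 lay above Ncor1 and Ncor1 above Sirt7, while Hdac1 lay above Sirt7 in control replicate 1. The lowest levels per kilobase in control were those of Rcor2 at 11.1 ± 4.03 and the mitochondrial sirtuin Sirt5 at 20.9 ± 3.34. In the silencing-labelled libraries Hdac1 was first at 2754 ± 1816 per kilobase, before Ncoa4 at 2180 ± 838 and Hat1 at 2004 ± 1156, and Sirt5 was last at 47.0 ± 22.7. The gaps between the first 3 were smaller than their SDs, and in Che-1 silencing replicate 3 Ncoa4 lay above Hdac1.

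**Figure D2:**
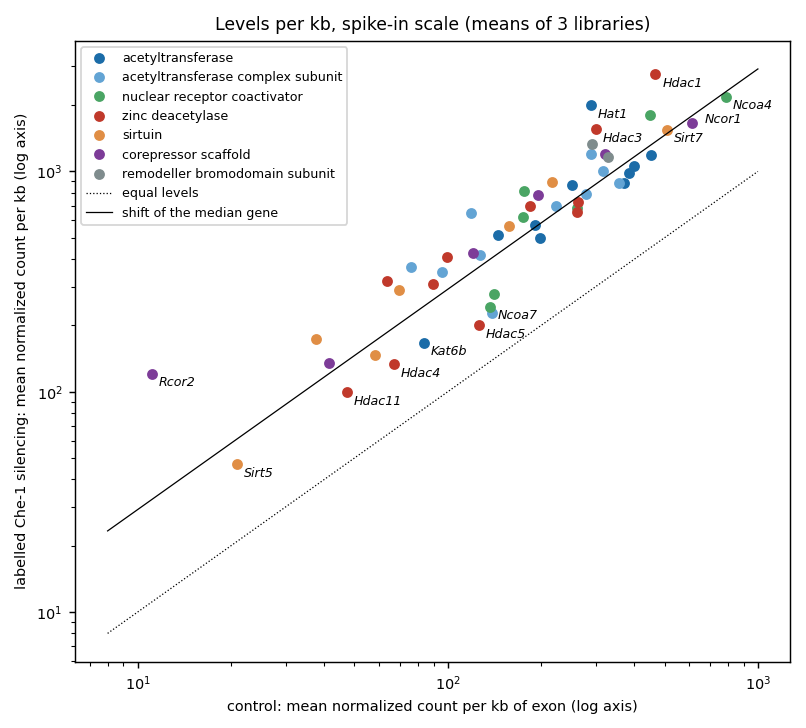
Mean level of the members, 1 not shown, per kilobase of exon (normalized counts on the spike-in scale, both axes log) in control (x axis) and in the silencing-labelled libraries (y axis), 3 libraries each, coloured by class. The dotted line marks equal levels and the solid line the shift of the median gene, 1.54 on the log2 scale. Rcor2, at 11.1 and 121, lies farthest above the solid line, while Hdac4, Hdac5, Ncoa7 and Kat6b lie below it.

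Among the 10 acetyltransferases 8 rose on the spike-in scale, beside 66.7% of all tested genes, and 0 passed on the relative scale, where their median difference was -0.17 beside 0.01 for all tested genes. Hat1, which acetylates newly made histone H4 before it is laid down on DNA, stood at 907, 341 and 397 normalized counts in control and at 3938, 5933 and 1548 in the silencing-labelled libraries. All of the latter lay above control on both scales. The rise was 2.73 on the log2 spike-in scale (SE 0.58, limma adjusted p = 4.7e-05), and the relative difference was 1.20 (SE 0.28, limma adjusted p = 0.0741).

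The other acetyltransferases had relative differences of 0.20 or less. Kat6b, the catalytic subunit of the MORF complex, was at 855, 521 and 601 normalized counts in control and at 1093, 1844 and 1015 in the silencing-labelled libraries. It did not pass per spike-in (0.98, SE 0.57, limma adjusted p = 0.11) and had a relative difference of -0.55 (SE 0.16, limma adjusted p = 0.0848), with all of these libraries below control. Kat6b and Kat2b have processed pseudogenes in the annotation, so their counts are uncertain.

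Crebbp and Ep300 are the broad enhancer acetyltransferases. Crebbp was at 5850, 2865 and 3330 normalized counts in control and at 8143, 14962 and 5543 in the silencing-labelled libraries, and Ep300 at 5416, 2639 and 2938 and at 8604, 14417 and 5269. Crebbp did not pass per spike-in (1.20, SE 0.58, limma adjusted p = 0.058), and Ep300 narrowly passed at 1.32 (SE 0.58, limma adjusted p = 0.037). The gap between these differences was smaller than either SE, and the groups overlapped in both genes. Each gene passed in 2 of the fits with a library left out. On the relative scale both lay below control in every silencing-labelled library, by -0.33 and -0.21, without passing.

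Kat6a, of the MOZ complex, was at 6092, 2983 and 3351 normalized counts in control and at 9277, 17094 and 6208 in the silencing-labelled libraries. Kat2a and Kat2b, the alternative catalytic subunits of SAGA and ATAC, rose by 1.29 and 1.51 on the log2 spike-in scale, Kat5 of TIP60 by 1.71, Kat7 of HBO1 by 1.37 and Kat8 of the MSL and NSL complexes by 1.73. Their relative differences and that of Kat6a ran from -0.24 for Kat2a to 0.20 for Kat8, and the groups overlapped in all 6.

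Of the 10 subunits of acetyltransferase complexes 9 rose on the spike-in scale, beside 66.7% of all tested genes, with a median relative difference of 0.08. Tada1, a SAGA core subunit, was at 366, 204 and 217 normalized counts in control and at 1514, 2161 and 619 in the silencing-labelled libraries. It rose by 2.31 (SE 0.55, limma adjusted p = 0.00031), and its relative difference of 0.78 (SE 0.21, limma adjusted p = 0.0836) did not pass although the groups did not overlap. Tada2a, the ATAC adaptor, was at 270, 102 and 118 in control and at 704, 1368 and 304 in the other group. Its relative difference was 0.63 with overlap, against 0.11 for its SAGA paralog Tada2b and 0.26 for Tada3, which serves both complexes.

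Brpf3, a scaffold of HBO1 and MOZ-type complexes, did not pass. It was at 1933, 517 and 602 normalized counts in control and at 1453, 2648 and 911 in the silencing-labelled libraries, so control replicate 1 alone lay among the latter on the spike-in scale. Its relative difference was -0.68 (SE 0.33, limma adjusted p = 0.182). Brpf1 and Brd1, the other scaffolds of that kind, both rose by 1.57 on the spike-in scale and had relative differences of 0.04. Ep400 and Trrap, large subunits of TIP60, had the smallest rises among the called genes of the class, at 1.24 and 1.38. The groups overlapped in both on the spike-in scale, and Ep400 passed narrowly (limma adjusted p = 0.049). Brd8 of the same complex rose by 1.89.

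Among the 7 nuclear receptor coactivators 5 rose, a share near the 66.7% of all tested genes, and Ncoa6 and Ncoa7 did not pass. Ncoa1, which recruits Crebbp and Ep300 to nuclear receptors, was at 1597, 1037 and 1234 normalized counts in control and at 5371, 9740 and 2867 in the silencing-labelled libraries. It rose by 2.06 (SE 0.58, limma adjusted p = 0.0019) and had a relative difference of 0.53 (SE 0.16, limma adjusted p = 0.0874) without overlap. Its relatives Ncoa2 and Ncoa3 rose by 1.34 and 1.82, with relative differences of -0.20 and 0.29. Ncoa7, known as an oestrogen receptor coactivator, was at 1594, 913 and 1062 in control and at 1500, 2898 and 1919 in the other group, a relative difference of -0.72 (SE 0.24, limma adjusted p = 0.1). Ncoa6, a subunit of histone H3 methyltransferase complexes, had one of -0.54, and Ncoa4 lay at -0.06.

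**Figure D3:**
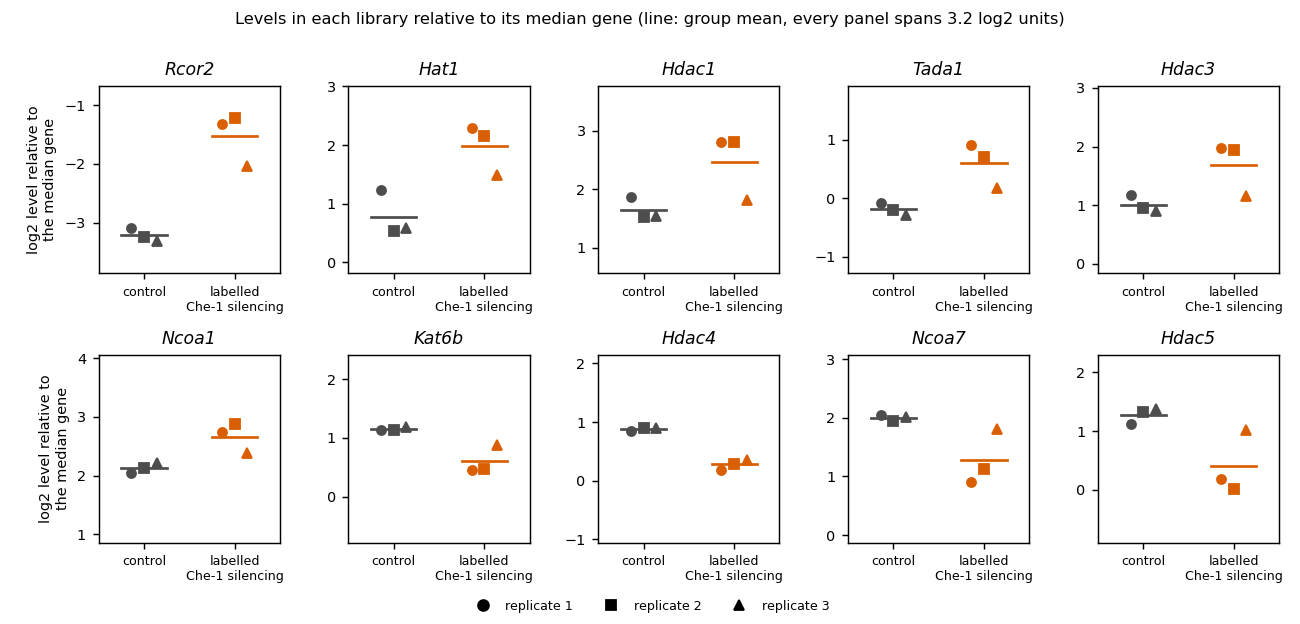
Log2 level relative to the median gene of the library (y axis) for 10 members, with 1 point per library, symbols for replicates and a line at each group mean. Che-1 silencing replicate 3 lies nearest to control in its group for all 10, with Hdac1 at 1.81 there and at 1.52 to 1.86 in control.

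The 11 zinc-dependent deacetylases are given by class, without a test between classes. All 4 of class I, the nuclear enzymes Hdac1, Hdac2, Hdac3 and Hdac8, rose on the spike-in scale, where 66.7% of all tested genes did, with a median of 2.04 beside 1.54 for all genes and a relative median of 0.51. Of class IIa, whose members Hdac4, Hdac5, Hdac7 and Hdac9 shuttle between nucleus and cytoplasm and bind MEF2 factors, 2 rose and the relative median was -0.40, in a range from -0.87 to 0.12. On the relative scale 0 members of either class passed.

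Hdac1, a catalytic subunit of SIN3, NuRD and CoREST, was at 1411, 678 and 768 normalized counts in control and at 5593, 9325 and 1923 in the silencing-labelled libraries. It rose by 2.36 (SE 0.58, limma adjusted p = 0.00048). Its relative difference was 0.83 (SE 0.29, limma adjusted p = 0.109) and rested on replicates 1 and 2, being 1.16 over these and 0.17 for replicate 3, which overlapped with control. Hdac3, the enzyme of NCoR complexes, was at 879, 456 and 493 in control and at 3153, 5095 and 1224 in the other group, with a relative difference of 0.68, which was 0.95 without replicate 3. Hdac2 was at 1130, 595 and 611 in control and at 2773, 4451 and 1645 in the other group, a relative difference of 0.34 without overlap. Hdac8, which deacetylates cohesin, rose by 1.85.

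Hdac5 moved least of the 54 on the spike-in scale. It was at 840, 596 and 686 normalized counts in control and at 912, 1349 and 1110 in the silencing-labelled libraries, a difference of 0.66 (SE 0.57, limma adjusted p = 0.28), and its relative difference was -0.87 (SE 0.27, limma adjusted p = 0.0941). Every silencing-labelled library was above control on the first scale and below it on the second. Hdac4 showed the same order of libraries. It was at 696, 440 and 490 in control and at 915, 1623 and 704 in the other group, with a relative difference of -0.60 (SE 0.12, limma adjusted p = 0.073), and the DESeq2 adjusted p was 2.6e-05. Hdac7 and Hdac9 rose by 1.33 and 1.65, and their relative differences were -0.20 and 0.12.

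Among the remaining zinc-dependent deacetylases, Hdac6, the X-linked tubulin deacetylase, was at 350, 212 and 233 normalized counts in control and at 1305, 2204 and 434 in the silencing-labelled libraries. Its relative level lay above control in replicates 1 and 2, by 0.88, and below it in replicate 3, by -0.18. Hdac10, a polyamine deacetylase, rose by 1.24 and had a relative difference of -0.29 without overlap. Hdac11, the sole class IV enzyme, was at 154, 111 and 111 in control and at 169, 324 and 297 in the other group and passed on neither scale. Hdac6 and Hdac8 are X-linked, and the part of sex in their values was not tested.

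Of the 7 sirtuins, deacylases that use NAD, 6 rose, beside 66.7% of all tested genes, and their median relative difference was 0.24. Sirt2, the cytoplasmic tubulin deacetylase, was at 654, 390 and 425 normalized counts in control and at 1911, 3169 and 995 in the silencing-labelled libraries, a rise of 1.93 and a relative difference of 0.40 (SE 0.15, limma adjusted p = 0.118) without overlap. The nuclear sirtuins Sirt1, Sirt6 and Sirt7 rose by 1.77, 1.93 and 1.53. Of the mitochondrial ones, Sirt4 rose by 2.02 and Sirt3 by 1.32, though the groups overlapped for Sirt3. Sirt5 was at 71.4, 51.7 and 61.7 in control and at 98.7, 216 and 101 in the other group. It did not pass (1.07, SE 0.55, limma adjusted p = 0.075), although every silencing-labelled library lay above control.

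Among the 7 corepressor scaffolds 6 rose, beside 66.7% of all tested genes, and Rcor2 had the largest fold of all members. Rcor2 is a CoREST paralog that binds the demethylase Kdm1a and Hdac1 or Hdac2. It was at 44.5, 24.0 and 25.6 normalized counts in control and at 322, 569 and 134 in the silencing-labelled libraries, means of 31.4 ± 11.4 and 342 ± 218 (SD, n = 3). The rise was 3.23 on the log2 spike-in scale (SE 0.55, limma adjusted p = 3.2e-07). The relative difference of 1.70 (SE 0.28, limma adjusted p = 0.0723) did not pass although all 3 libraries lay above control, at 1.95 over replicates 1 and 2 and 1.19 for replicate 3.

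Its paralogs had relative differences near 0. Rcor1, the main CoREST scaffold, was at 1108, 442 and 510 normalized counts in control and at 2261, 4014 and 966 in the silencing-labelled libraries, a relative difference of 0.18, and that of Rcor3 was -0.02. Sin3a rose by 1.79 and Sin3b by 1.89, with relative differences of 0.26 and 0.36. Ncor1 was at 9706, 5064 and 5763 in control and at 14322, 30059 and 11213 in the other group and rose by 1.36 (SE 0.58, limma adjusted p = 0.03). Brd7 of the PBAF remodeller rose by 2.05 and Brd9 of the noncanonical BAF remodeller by 1.70.

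Summed over classes, normalized counts were higher in the silencing-labelled libraries in writers, erasers and corepressors alike. Such sums carry the general rise of these libraries, which came to 1.54 log2 units for the median tested gene. A higher sum therefore does not by itself set a class apart from other genes. The acetyltransferases summed to 24554, 12029 and 13699 in control and to 40862, 70711 and 25620.0 in the other group, a fold of 2.73 between group means. The fold was 2.94 for their complex subunits, 3.12 for the coactivators, 3.50 for the zinc-dependent deacetylases, 3.49 for the sirtuins, 2.98 for the corepressor scaffolds and 4.12 for Brd7 with Brd9. Class I deacetylases had a fold of 4.94 and class IIa 2.58. As these are sums of counts, long and abundant genes weigh most in them, and no test was made.

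The classes were also expressed as shares of the members' total count. Acetyltransferases held 24.5% ± 0.708 in control and 22.5% ± 0.999 in the silencing-labelled libraries (SD, n = 3), and zinc-dependent deacetylases 10.6% ± 0.536 and 11.9% ± 0.917. Corepressor scaffolds held 17.8% ± 0.0987 and 17.4% ± 0.863, and sirtuins 3.73% ± 0.168 and 4.25% ± 0.124. Class I deacetylases held 3.73% ± 0.0967 and 5.85% ± 0.999, and class IIa 5.30% ± 0.452 and 4.47% ± 0.189.

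Ratios within a library do not depend on the scaling. Summed class I counts over summed class IIa counts gave 0.791, 0.678 and 0.651 in control and 1.47, 1.45 and 1.02 in the silencing-labelled libraries, with no overlap and a log2 difference of 0.88. Acetyltransferases over all deacetylases, zinc-dependent and sirtuin, gave 1.87, 1.62 and 1.66 in control and 1.29, 1.34 and 1.56 in the other group, a log2 difference of -0.30, again with no overlap. Corepressor scaffolds over the same deacetylases gave 1.32, 1.20 and 1.22 in control and 0.960, 1.11 and 1.18 in the other group. On the relative scale single genes lay above control without overlap in 20.5% of all tested genes and below in 19.7%. No such share was taken for ratios of sums over other genes.

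**Figure D4:**
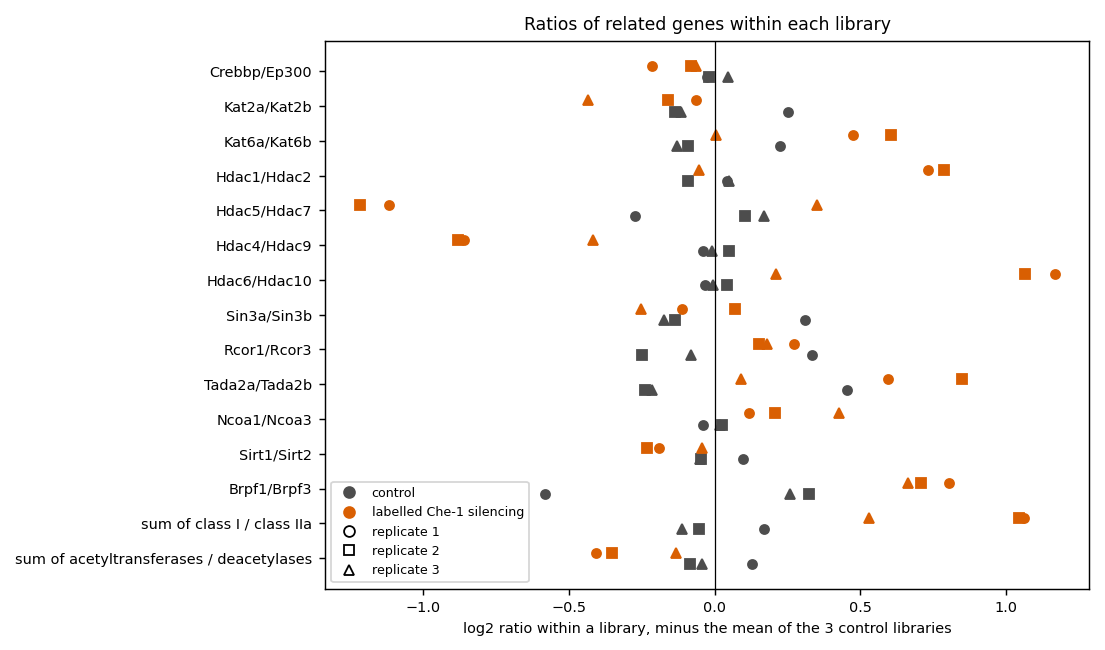
Log2 ratios within each library of the paralog pairs, 1 not shown, and of 2 pairs of class sums (x axis, minus the mean of the 3 control libraries), with colours for groups and symbols for replicates. The silencing-labelled points of class I over class IIa deacetylases all lie right of control and those of Hdac4 over Hdac9 all left of it, while Hdac1 over Hdac2 has its replicate 3 among control.

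Among 14 paralog pairs, 5 had log2 ratios that did not overlap between the groups, 3 higher and 2 lower in the silencing-labelled libraries. Absence of overlap was common in these libraries. Single genes on the relative scale showed it in 20.5% (above control) and 19.7% (below) of all tested genes. No such share was taken over ratios of other gene pairs. With 3 against 3 libraries the exact two-sided permutation test cannot go below 0.10, and each of these 5 stood at that value, or 0.28 after Benjamini-Hochberg adjustment over the 14 pairs. Hdac6 over Hdac10 gave 0.399, 0.421 and 0.407 in control and 0.918, 0.856 and 0.473 in the other group, a log2 difference of 0.81. Brpf1 over Brpf3 gave 0.825, 1.55 and 1.48 in control and 2.16, 2.02 and 1.96 in the other group, and Ncoa1 over Ncoa3 differed by 0.25 on the log2 scale. Hdac4 over Hdac9 gave 0.551, 0.587 and 0.564 in control and 0.313, 0.308 and 0.425 in the other group, a log2 difference of -0.72, and Crebbp over Ep300 differed by -0.12.

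The ratio of Hdac1 to Hdac2 overlapped. It was 1.25, 1.14 and 1.26 in control, 2.02 and 2.09 for replicates 1 and 2 of the other group, and 1.17 for its replicate 3 (exact permutation p = 0.3, n = 3 per group). Hdac5 over Hdac7 was at 0.460, 0.596 and 0.625 in control, 0.255 and 0.238 in replicates 1 and 2, and 0.708 in replicate 3, which lay above every control library while replicates 1 and 2 lay below.

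Partner proteins of the same complexes, 93 genes in 9 lists, were also counted. On the spike-in scale 83 rose and 0 fell, where 66.7% of all tested genes rose. The median relative difference was 0.16, and limma called 0 of them on the relative scale. DESeq2 called 14 higher and 6 lower there, and limma without Che-1 silencing replicate 3 called 39 higher and 9 lower, beside the shares of all genes given above for these fits. The relative median was 0.47 over 13 TIP60 partners, all of which rose on the spike-in scale, and 0.45 over 14 SIN3 partners, of which 13 rose. It was 0.26 over 9 NuRD partners, 0.13 over 15 SAGA and ATAC partners, 0.03 over 6 CoREST partners, 0.23 over 3 NCoR partners, -0.07 over 15 MOZ, HBO1, MSL and NSL partners, 0.08 over 11 genes of acetyl-CoA and NAD supply and -0.33 over 7 CtBP and Groucho corepressors, of which 4 rose.

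Nampt, the rate-limiting enzyme of NAD salvage, on which sirtuins draw, was at 1259, 982 and 1132 normalized counts in control and at 8038, 13459 and 4143 in the silencing-labelled libraries. All 3 lay above control on both scales, with a relative difference of 1.24 (SE 0.18, limma adjusted p = 0.0723). Mbd2, the methyl-DNA-binding subunit of NuRD, was at 2324, 1269.6 and 1475 in control and at 15218, 25949 and 3718 in the other group, a relative difference of 1.27 that was 1.77 over replicates 1 and 2 and 0.26 for replicate 3. Rbbp7, a histone-binding subunit of SIN3 and NuRD and X-linked, had a relative difference of 1.19, Yeats4 and the X-linked Morf4l2 of TIP60 had 1.03 and 0.79, and Fam60a of SIN3 had 0.76.

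At the other end, the Groucho corepressor Tle2 was at 144, 118 and 145 normalized counts in control and at 76.5, 173 and 176 in the silencing-labelled libraries, a relative difference of -1.56 (SE 0.47, limma adjusted p = 0.0898). Nmnat3, a mitochondrial enzyme of NAD synthesis, had a relative difference of -1.36, Phf15, a scaffold of HBO1, -0.78, Phf21a of the Kdm1a complex -0.63, Tle3 -0.43 and Atxn7 of SAGA -0.35. Rest, the repressor that recruits CoREST and SIN3, lay at 0.74. Mbip of ATAC, Msl3, Mbd3, Tbl1xr1 and Tbl1x lay at 0.85, 0.61, 0.59, 0.41 and 0.23, and Msl3 and Tbl1x are X-linked. For Che-1 silencing replicate 3 alone, Rest lay at 0.21. In that library Mbip, Msl3, Mbd3, Tbl1xr1 and Tbl1x lay at 0.16, 0.16, -0.05, 0.04 and 0.01, and Mbd3 and Tbl1x overlapped with control. The part of sex in the X-linked partners was not tested.

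**Figure D5:**
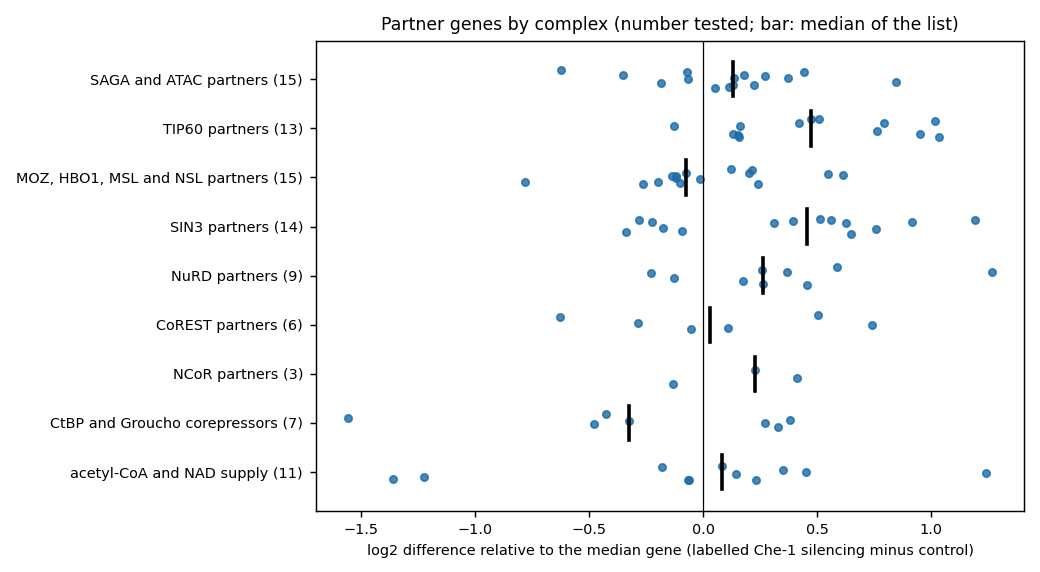
Relative log2 differences of the 93 partner genes (x axis, silencing-labelled minus control), 1 point per gene, by complex, with a bar at the median of each list. The TIP60 and SIN3 lists have medians of 0.47 and 0.45, and the CtBP and Groucho list has one of -0.33, with Tle2 lowest at -1.56.

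Markers of several marrow cell types also differed between the groups, while others overlapped, and their part in the results was not tested. Germinal centre B cell markers, all 8 detected, summed to between 1280.0 and 1617 normalized counts in control. Their sums were 99515, 142718 and 4983 in the silencing-labelled libraries. On the relative scale 6 of the 8 lay above control without overlap, where 20.5% of all tested genes did. Plasma cell markers, 7 of the 9 names listed having a row, summed to between 6100 and 7160 in control and to 20007, 32037 and 19928 in the other group, while their summed relative level overlapped, at up to 4.72 log2 units above the library median in control and at 4.64, 4.59 and 5.18 in the other group. Of 8 erythroid markers with a row 7 lay below control without overlap on the relative scale, where 19.7% of all tested genes did. Their sum was 38713, 7786 and 8909 normalized counts in control, with replicate 1 far above the others. It was 8435, 20388 and 15101 in the other group. The summed relative level of B cell markers was between 6.09 and 6.36 log2 units above the library median in control and between 6.16 and 6.51 in the other group, while that of neutrophil markers was 3.63 to 4.86 in control and 0.92, 2.77 and 4.95 in the other group. Macrophage markers lay at 5.20 to 6.17 and 6.30 to 6.50, T cell markers at 4.18 to 4.27 and 4.07 to 4.49, megakaryocyte markers at 4.07 to 4.14 and 1.96 to 5.03, and stem and progenitor markers at 2.71 to 3.49 and 1.92 to 2.42. On the relative scale 5 of 9 macrophage markers lay above control without overlap and 1 below. Of 8 T cell markers 1 lay above in this way and 4 below. Of 6 stem and progenitor markers 0 lay above and 4 below, and of 6 B cell markers 0 above and 1 below. Of 7 plasma cell markers 2 lay above and 0 below. Every neutrophil and megakaryocyte marker overlapped. No marker with a row was at 0 in all 6 libraries.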

How the data were processed

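Stranded total RNA libraries without ribosomal RNA, 3 per genotype label, were sequenced, per the labels' protocols. Build mm9, TopHat, Cufflinks, Cuffdiff and HTSeq are named in the submitters' processing notes, without versions. How counting treated strand and multi-mapped reads is not given in the sources used here. The authors deposited raw counts of spike-ins per library and, per the file headers, a gene table of group means of spike-in-normalized counts (signal), the ratio or fold of the means, its log2 value, a p-value and an adjusted p-value. The planned test assumed values per library. Counts per library were therefore solved from the deposited means with size factors from the spike-in table, of which HTSeq summary rows took 0.0434% to 0.221% of reads, and 17076 of 17173 genes (99.4%) gave a unique whole-number solution, all 54 members among them.

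limma 3.58.1 (R 4.3.3) was fitted with a mean trend on log2(normalized count + 1), for the 14604 genes that averaged 10 normalized counts or more, and Benjamini-Hochberg adjustment was over all of them. Differences on that scale understate the change of low genes. The spike-in fit had infinite prior degrees of freedom and the relative fit 2.42. edgeR 4.0.16 and DESeq2 1.42.0 on the recovered counts were alternatives. The limma fits were also run on simulated counts. Those held no shift of whole libraries and no outlying library, so that run does not show how the fits behave with either. Lengths per kilobase are merged exons of the GENCODE M21 basic annotation (GRCm38), not the gene models the authors counted on. Values per library are given for members with the lowest p on the relative scale or the highest level in their class and for paralogs, as a choice from these, and for up to 2 partners per list with the lowest p. Members, lists and pairs were chosen with earlier results of these data known. Values of 1 member are not reported here, though it enters the counts and class sums.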

Additional observations from a re-analysis of the deposited data

How the results depend on the processing

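Members called higher on the spike-in scale numbered 44, between 10 and 51 with a library left out, 27 with the replicate block and 11 with control replicates 2 and 3 averaged. Genes called higher, 9745 in all, ranged from 3231 to 10991 with a library left out and were 3475 with those controls averaged. Genes called lower, 109 in all, ranged from 24 to 244 with a library left out and were 52 with a minimum mean of 50, 55 with the controls averaged and 53 by DESeq2. On the relative scale members called higher ranged from 0 to 20 and members called lower from 0 to 6 with a library left out, and DESeq2 called 6 and 6. Genes called higher there numbered 1 with a pseudocount of 0.1, 11 without a filter, 2189 by DESeq2 and 0 to 4025 with a library left out, and genes called lower 12, 1777 and 4 to 3713 without a filter, by DESeq2 and with a library left out. The causes were not tested. The relative differences of 7 members near 0 changed sign without passing. Brpf1 was -0.0048 with the controls averaged. Without a filter Kat2b was 0.051, Ncoa4 0.010, Rcor3 0.048 and Sirt7 0.065, and Sirt7 was 0.0040 with a pseudocount of 5. With a library left out Brd1 ran from -0.026 to 0.11, Brpf1 from -0.017 to 0.14, Kat2b from -0.070 to 0.054, Ncoa4 from -0.15 to 0.031, Rcor3 from -0.19 to 0.21, Sirt7 from -0.039 to 0.063 and Trrap from -0.25 to 0.017. Same-numbered control and silencing libraries had deviations from their group means correlated at 0.17, -0.15 and 0.18 over genes. Control replicate 1 and Che-1 silencing replicate 3 lay apart within their groups and weigh on these deviations. The correlations therefore cannot tell whether the numbers pair the libraries. Not every library correlated best with its own number. Under the replicate block 6719 genes were called higher and 83 lower on the spike-in scale. Depth limits the lowest members most, such as Rcor2 with 38 reads in control replicate 1.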
